A study of Mus musculus with 22 samples.

Results

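Zfp genes are mouse genes named for zinc finger proteins, and they include the largest family of mammalian transcription factors. Regions were taken where the deposited annotation gave a gene named Zfp followed by a number, at any position relative to that gene, and the name alone decided membership. There were 238 such regions near 135 genes, out of 26201 regions in 4 tables of trimethylated lysine 4 of histone H3 (H3K4me3) measured by ChIP-seq. Synovial fibroblasts, which line the joint and form its matrix, were cultured to passage 4 to 5 from mice of strain CBA x C57BL/6J. Cells of Tg197 mice, a model of arthritis driven by human TNF as a transgene, were compared with wild-type (WT) cells from animals aged 3, 8 or 11 weeks. In a further comparison 8 week WT cells treated with TNF stood against the untreated 8 week WT cells. Each of these 7 groups had 3 libraries. TNF dose, treatment time and whether libraries stem from different animals are not given in the sources used here. P-values therefore reflect only how far these libraries spread, which may be technical. Both 8 week comparisons used the same WT libraries.

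H3K4me3 marks the start sites of active and poised genes, usually as a peak over the CpG-rich promoter. Most Zfp proteins carry zinc fingers of the Cys2His2 type that read DNA, and many of those also carry a KRAB domain, which recruits the corepressor Trim28 and silencing enzymes to retroelements and imprinted regions. KRAB genes lie in tandem clusters with near-identical copies. A small group has fingers of the CCCH type that bind RNA instead: Zfp36, also called tristetraprolin, binds AU-rich elements in the Tnf message and promotes its decay, and is itself induced by TNF in fibroblasts.

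A region was listed only where the best window of the authors' comparison had a p up to 0.0001, and Zfp genes without one had no value here, and a high share of called regions is built into the data. Values are normalized read counts per region, which are comparable between the groups of 1 table. A log2 change is the limma difference on log2 of the normalized count plus 0.5, treated or transgenic minus WT, with its standard error. A region rose or fell if it passed a limma adjusted p of 0.05, and was higher or lower in the authors' deposited table if it passed their adjusted p of 0.05. Reads in the listed regions ranged from 1560963 to 2780941 per library at 3 weeks, from 390496 to 849692 at 8 weeks, from 807633 to 1096917 at 11 weeks and from 321448 to 1312112 in the TNF table. Of 11 fibroblast markers, 8 had a listed region within 3 kb of a transcription start site (TSS), with library values from 85.05 to 587. Since unlisted genes have no value, this does not test the cell type. Markers of leukocytes (3 of 7), endothelium (3 of 5), muscle (1 of 3), epithelium (1 of 4) and nerve sheath (1 of 3) also had listed regions, and the part of other cells in the Zfp values was not tested.

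The start sites of 6 members whose changed region lay over or beside the start are shown here, because the direction of change turned on the distance from the TSS. The sequences are RefSeq promoters of build GRCm38.p6, matched to the members by transcript accession because the deposited coordinates are of build mm9, from 250 bases before to 50 bases after the start, and capitals mark CG dinucleotides, the bases that CpG-rich promoters share. Zfp882, Zfp622, Zfp820, Zfp710 and Zfp560 had regions that rose over the start, and Zfp105 had one that fell.
Zfp882 (chr8:71908356-71908655, plus strand): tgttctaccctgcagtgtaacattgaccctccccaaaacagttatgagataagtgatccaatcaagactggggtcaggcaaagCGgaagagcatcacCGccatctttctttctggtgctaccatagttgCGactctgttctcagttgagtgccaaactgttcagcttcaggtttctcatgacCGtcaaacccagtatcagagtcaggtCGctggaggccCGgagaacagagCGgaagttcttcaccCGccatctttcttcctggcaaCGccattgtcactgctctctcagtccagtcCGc
Zfp622 (chr15:25984116-25984415, plus strand): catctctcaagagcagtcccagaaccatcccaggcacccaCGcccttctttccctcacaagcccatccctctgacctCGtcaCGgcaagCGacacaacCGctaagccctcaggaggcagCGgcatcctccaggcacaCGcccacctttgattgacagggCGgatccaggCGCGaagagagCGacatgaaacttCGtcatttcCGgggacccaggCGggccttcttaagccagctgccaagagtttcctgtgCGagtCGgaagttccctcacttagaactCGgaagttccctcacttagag
Zfp820 (chr17:21845710-21846009, minus strand): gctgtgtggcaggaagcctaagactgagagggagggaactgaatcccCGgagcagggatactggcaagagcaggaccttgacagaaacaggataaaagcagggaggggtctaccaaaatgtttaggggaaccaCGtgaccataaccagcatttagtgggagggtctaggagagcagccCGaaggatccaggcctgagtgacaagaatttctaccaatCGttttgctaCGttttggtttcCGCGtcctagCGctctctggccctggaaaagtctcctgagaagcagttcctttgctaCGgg
Zfp710 (chr7:80024564-80024863, plus strand): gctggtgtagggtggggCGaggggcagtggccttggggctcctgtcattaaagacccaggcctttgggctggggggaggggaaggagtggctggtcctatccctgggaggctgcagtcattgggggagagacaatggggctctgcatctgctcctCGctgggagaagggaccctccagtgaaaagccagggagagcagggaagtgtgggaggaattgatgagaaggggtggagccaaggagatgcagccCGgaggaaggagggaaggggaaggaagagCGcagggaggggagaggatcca
Zfp560 (chr9:20385109-20385408, minus strand): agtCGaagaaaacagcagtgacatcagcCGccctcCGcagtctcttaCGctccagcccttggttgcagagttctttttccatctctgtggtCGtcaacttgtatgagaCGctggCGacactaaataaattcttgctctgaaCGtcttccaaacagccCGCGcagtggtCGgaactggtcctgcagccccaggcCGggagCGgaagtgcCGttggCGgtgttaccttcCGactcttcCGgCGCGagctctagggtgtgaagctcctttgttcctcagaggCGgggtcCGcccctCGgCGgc
Zfp105 (chr9:122922828-122923127, plus strand): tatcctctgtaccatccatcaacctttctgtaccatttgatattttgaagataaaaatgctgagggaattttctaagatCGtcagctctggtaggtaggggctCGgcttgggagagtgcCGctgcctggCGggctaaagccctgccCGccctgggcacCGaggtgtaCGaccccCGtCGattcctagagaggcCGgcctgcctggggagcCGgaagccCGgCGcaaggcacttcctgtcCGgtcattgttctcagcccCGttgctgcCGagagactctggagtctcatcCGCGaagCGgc
These windows held 10 CG dinucleotides in Zfp882, 17 in Zfp622, 9 in Zfp820, 4 in Zfp710, 23 in Zfp560 and 19 in Zfp105. Over the 129 promoter windows of the 102 Zfp members that matched RefSeq the median was 18.0, against 7.0 over all 32851 RefSeq promoter windows, so Zfp882, Zfp622, Zfp820 and Zfp710 lay below the median of the members. Over 406 RefSeq promoter windows of Zfp symbols, listed here or not, the median was 14.0, and Zfp622 lay above it.

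In all, 7 motifs were searched in the same windows on both strands. The GC box GGGCGG was in 53.5% of the 129 Zfp windows and 35.7% of all windows, and it was found in Zfp622, Zfp560 and Zfp105. CCGGAAG, the core read by ETS factors, was in 24.0% against 8.86%, and among the 6 windows in Zfp560 and Zfp105. CCAAT was in 35.7% against 37.4%, and in Zfp882, Zfp820 and Zfp710. TATAAA, the TATA box, was in 7.75% against 13.6%, the AP-1 motif TGANTCA with C or G at N in 3.88% against 5.2%, and AAGATGGC, the core read by YY1, in 3.1% against 2.75%, with Zfp882 alone of the 6. The NF-kB motif, the element through which TNF acts on many promoters, was in 2 of the 129 Zfp windows (1.55%) against 4.51% of all windows, and in none of the 6 shown. In the 406 windows of Zfp symbols the shares were 43.6% for the GC box, 21.2% for CCGGAAG, 47.5% for CCAAT and 3.45% for the NF-kB motif. A match describes these letters only and is no evidence of a bound factor. The median CG count was 16 in 49 windows of genes with only higher values within 1 kb of the TSS and 17.0 in 23 windows of genes with only lower values there.

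In the 3 comparisons of Tg197 with WT cells, most Zfp regions at a start site had more H3K4me3 in Tg197 cells, and most Zfp regions inside genes had less. At 3 weeks 31 of 37 Zfp regions within 1 kb of a TSS had a higher value in Tg197 cells (83.8%, against 73.7% of all listed regions at that distance). A lower value was found in 64 of 65 Zfp gene-body regions, and likewise in 6296 of all 6357 listed gene-body regions. At 11 weeks 15 of 21 were higher within 1 kb (71.4% against 63.4%) and 19 of 26 were lower in gene bodies (2186 of 2926 of all). At 8 weeks 6 of 10 were higher within 1 kb (55.5% of all regions there). After TNF 10 of 22 were higher within 1 kb (45.5% against 53.7%), so there the start sites were divided. Listed Zfp regions lay nearer to start sites than the tables as a whole: 48.0% of those at 3 weeks were within 3 kb, against 22.1% of all listed regions, and the shares were 82.6% against 1170 of 2923 regions at 8 weeks, 55.2% against 26.9% at 11 weeks and 84.4% against 59.3% for TNF. Members were chosen by gene name, and every Zfp region was either within 3 kb of a TSS or in a gene body. At 3 weeks these were 60 and 65 of 125 Zfp regions, against 3002 and 6357 of all 13603 listed regions, the rest of which lay elsewhere. Part of the difference in position may therefore come from how members were chosen. Whether the Zfp shares differ from those of all regions at the same distance was not tested.

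**Figure D1:**
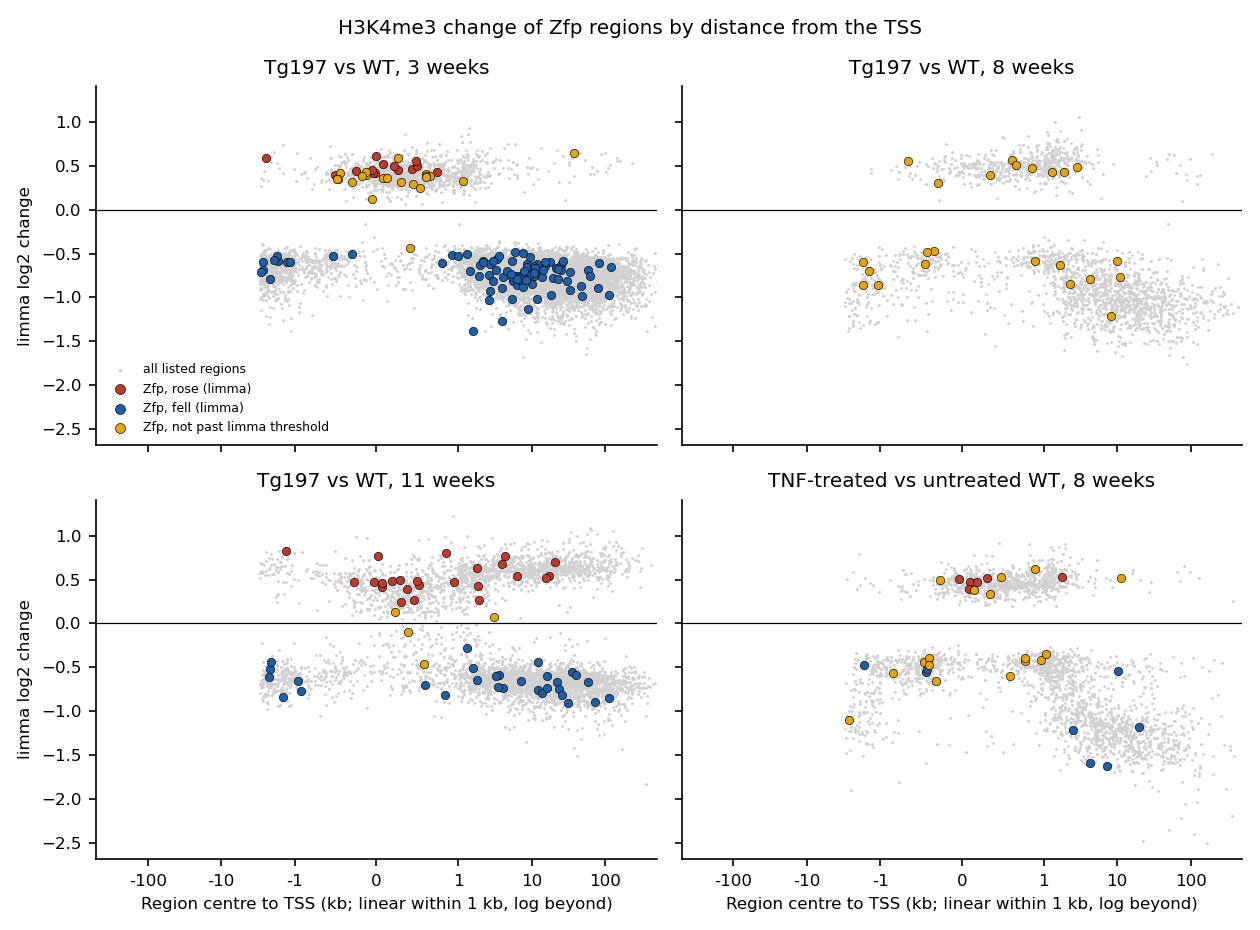
The limma log2 change (y axis) of each listed region against its distance from the nearest TSS (x axis, kb, linear within 1 kb and logarithmic beyond, negative upstream) in the 4 comparisons. Grey points are all listed regions, and Zfp regions are red where they rose, blue where they fell and yellow where they did not pass; most above 0 lie at start sites, apart from 1 gene-body region at 3 weeks, 7 at 11 weeks and 1 after TNF.

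**Figure D2:**
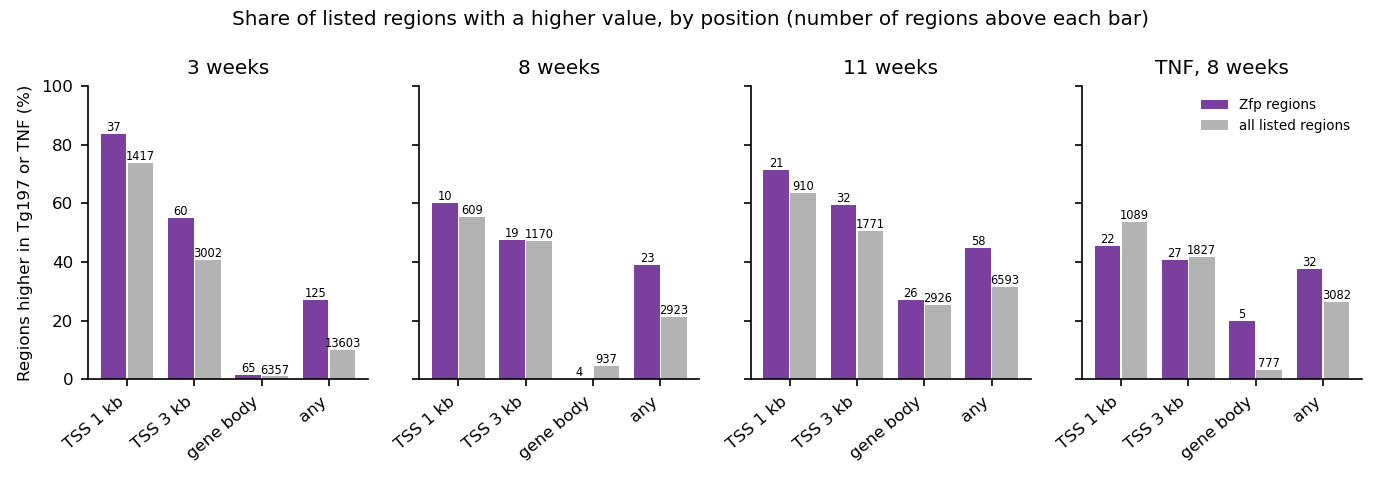
Bars give the percentage of listed regions with a higher value in Tg197 or TNF-treated cells (y axis) by position (x axis: within 1 kb or 3 kb of the TSS, in the gene body, or any), for Zfp regions and for all listed regions, with the number of regions above each bar. The share falls from the start site to the gene body in every comparison, from 83.8% to 1.54% for Zfp regions at 3 weeks.

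At 3 weeks limma called 14 of 125 Zfp regions as rising and 90 as falling. Of all 13603 listed regions 4.68% rose and 88.9% fell, and the median log2 change was -0.62 over the Zfp regions and -0.70 over all. By the authors' deposited table, 34 Zfp regions were higher and 90 lower (9.71% and 89.5% of all regions), and the libraries of the 2 groups did not overlap in 109 Zfp regions (92.6% of all). This comparison leaned on single libraries. Tg197 library c was the lowest of its group in 28 of the 31 higher regions within 1 kb of a TSS, with a median of 253 against 314 and 352 in libraries a and b and 216 to 221 in WT. Without WT library c limma called 0 Zfp regions in either direction, and without Tg197 library c it called 29 as rising. The rising calls were 5 without Tg197 library a, 3 without either of WT libraries a and b, and the falling calls were 48 without WT library b.

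At 8 weeks limma called 0 of 23 Zfp regions, as it called 0.0% of all 2923 regions in either direction. An unadjusted limma p under 0.05 was reached by 13 of the 23, and by 1876 of all 2923 regions. With voom on the recovered reads 0 Zfp regions were called. By the authors' deposited table, 8 Zfp regions were higher and 13 lower (20.2% and 77.2% of all regions), and the libraries separated in 16 (63.2% of all). The median log2 change was -0.59, against -0.86 over all regions. WT library c was the lowest WT library in 12 of the 14 Zfp regions with a lower value in Tg197 cells, with a median of 103 against 202 and 172 in libraries a and b and 83.1 to 109 in Tg197 cells. Without it limma called 4 Zfp regions as rising and 14 as falling.

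At 11 weeks 24 of 58 Zfp regions rose and 30 fell (29.6% and 67.7% of all 6593 regions), with a median log2 change of -0.44 against -0.60. By the authors' deposited table, 23 were higher and 31 lower (29.8% and 67.0% of all), and the groups separated in 52 (95.9% of all). With any 1 library left out, 21 to 23 Zfp regions rose and 28 to 29 fell.

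After TNF 6 of 32 Zfp regions rose and 8 fell (16.5% and 42.6% of all 3082 regions), with a median of -0.42 against -0.58. By the authors' deposited table, 11 were higher and 20 lower (24.6% and 72.3% of all), and the groups separated in 23 (74.2% of all). Leaving out TNF-treated library b or c, or WT library b or a, limma called 0 in either direction, and without WT library c it called 10 rising and 19 falling. WT library c was the lowest WT library in 16 of the 20 Zfp regions with a lower value after TNF.

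The balance of directions depended on the scaling of the libraries. When each library was scaled to the median of all listed regions, the median log2 change of all regions moved by 0.67 at 3 weeks, 0.71 at 8 weeks, 0.34 at 11 weeks and 0.51 for TNF, and Zfp calls became 19 rising and 0 falling at 3 weeks, 6 and 0 at 8 weeks, 26 and 4 at 11 weeks, and 12 and 2 after TNF. When each was scaled to the regions within 1 kb of a TSS, the median moved by -0.33, -0.12, -0.15 and -0.10 in the same order, and the calls became 0 rising and 91 falling at 3 weeks, 0 and 9 at 8 weeks, 17 and 32 at 11 weeks, and 2 and 17 after TNF. Over all listed regions the first of these scalings gave 940 of 13603 rising and 6 falling at 3 weeks. It gave 338 of 2923 and 76 at 8 weeks, 2078 of 6593 and 681 at 11 weeks, and 772 of 3082 and 258 after TNF. The second gave 3 rising and 12238 falling at 3 weeks, and 12 and 1717 at 8 weeks. At 11 weeks it gave 1488 and 4519, and after TNF 221 and 1946. Under the first of these scalings 38 of the 90 Zfp regions that fell at 3 weeks turned to a higher value, and 1 of 30 at 11 weeks and 1 of 8 for TNF did so. None of the regions that rose at 3 weeks, 11 weeks or after TNF turned to a lower value under either. A scaling shifts the log2 changes of a table together, so the distance between start sites and gene bodies hardly moves with it: at 3 weeks the Zfp medians were 0.39 within 1 kb of the TSS and -0.74 in gene bodies, at 11 weeks 0.41 and -0.63, before such scaling.

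The CCCH family of messenger RNA decay factors had 3 of its 4 genes in the tables, in 7 regions. Tristetraprolin itself, Zfp36, was listed at 8 weeks only, in a region upstream of its start (chr7:29165101-29166800, mm9, centred at -1704.5 bases from the TSS). Its values were 152, 167 and 192 in Tg197 libraries and 262, 286 and 225 in WT libraries, a mean of 170.5 ± 20.5 against 258 ± 30.6 (SD, n = 3). The groups did not overlap, and the log2 change of -0.59 ± 0.20 (SE) missed the limma threshold (adjusted p = 0.0725). Scaled to all listed regions it became 0.12.

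Zfp36l2, a paralog that acts on the same kind of AU-rich element, was 1 of 2 genes with a region within 3 kb of the TSS in 3 tables, the other being Zfp385a. At 8 weeks its upstream region (chr17:84587601-84589800) held 182, 200 and 219 in Tg197 libraries and 391.8, 311 and 277 in WT libraries. All 3 Tg197 libraries lay below all WT libraries, with a log2 change of -0.69 ± 0.21 and adjusted p = 0.0725. After TNF a region on the start (chr17:84587201-84588200) that shares 600 bases with it held 181, 163 and 164, against 271, 175 and 253 in the same WT libraries, scaled for that table. WT library b lay inside the range of the TNF-treated libraries, and the log2 change of -0.43 ± 0.19 missed the threshold (adjusted p = 0.0658). Scaled to all listed regions these changes became 0.02 at 8 weeks and 0.07 after TNF.

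At 11 weeks the Zfp36l2 start site (chr17:84586401-84587600) stood the other way, with 475, 371 and 396 in Tg197 libraries and 312, 241 and 328 in WT libraries. The mean was 414 ± 54.6 against 294 ± 46.6 (1.41-fold), no library overlapped, and the region rose by a log2 change of 0.50 ± 0.13 (adjusted p = 0.00452). Its adjusted p in the authors' deposited table was 0.051. A second region inside the gene (chr17:84583701-84584700) had 360 ± 19.9 against 342 ± 2.76, with overlapping libraries and a log2 change of 0.07 ± 0.09. The 11 week start-site region adjoins the 8 week upstream region without sharing bases, and the ages were normalized separately, so the difference between ages was not tested.

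Zfp36l1, another paralog, was lower within the gene at 3 weeks (chr12:81208001-81209100). It held 95.4, 87.5 and 107 in Tg197 libraries against 122, 168 and 148 in WT, with a log2 change of -0.58 ± 0.19 (adjusted p = 0.0161), which became 0.09 when scaled to all listed regions. At 11 weeks a region 1948.5 bases after its TSS (chr12:81211501-81212600) held 309, 329 and 326 against 267, 250 and 286, and rose by 0.26 ± 0.09 (adjusted p = 0.0148). Libraries of the 2 groups did not overlap in either region, and the 11 week rise had an adjusted p of 0.095 in the authors' deposited table. Of 2 Zfp genes tied to NF-kB signalling, Zfp91, a ubiquitin ligase that stabilises the kinase NIK, was listed at 3 weeks. Its region 610.5 bases after the TSS had 307, 352 and 193 in Tg197 libraries against 211 to 212 in WT. Tg197 library c lay below every WT library, and the log2 change of 0.38 ± 0.22 missed the threshold (adjusted p = 0.105).

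**Figure D3:**
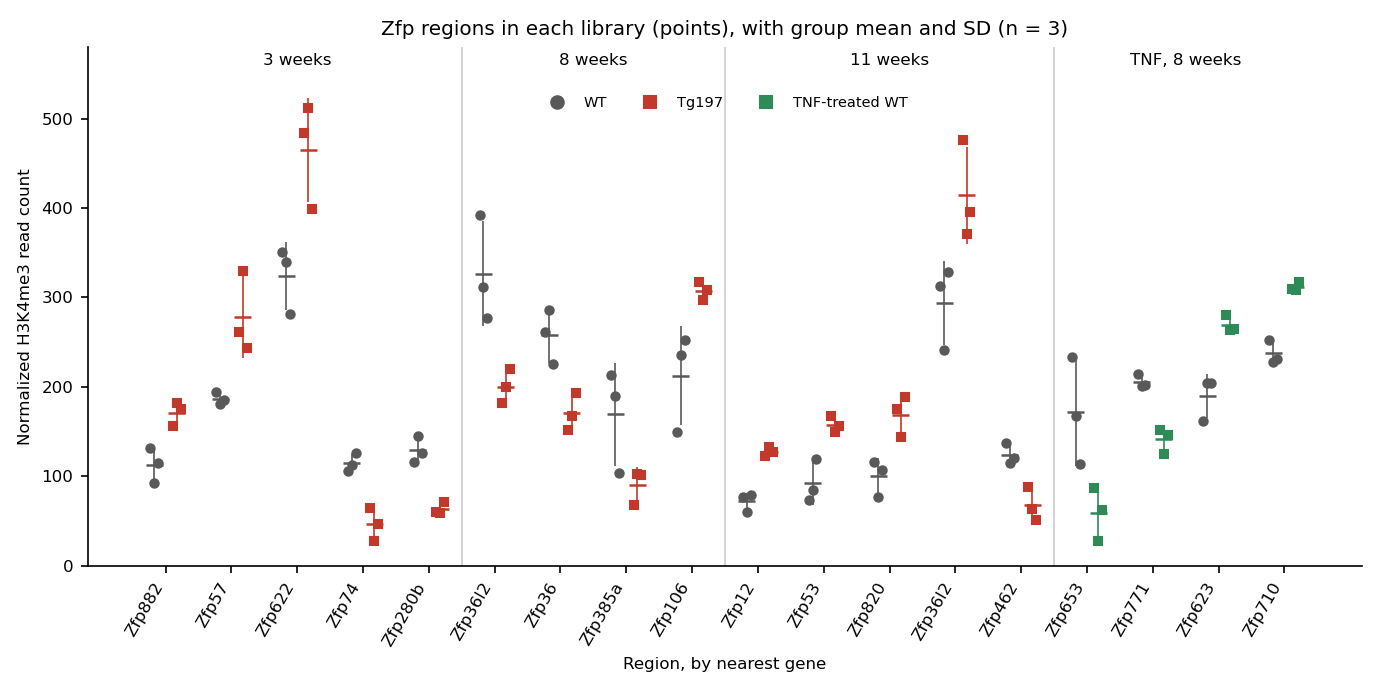
Normalized H3K4me3 read counts (y axis) of 18 Zfp regions named in the text in every library (points), with the group mean (bar) and SD (vertical line), n = 3 per group. WT is grey, Tg197 red and TNF-treated WT green; Zfp36l2 is lower in Tg197 cells at 8 weeks and higher at 11 weeks, in regions that do not share bases.

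Among the KRAB genes, a list of 6 that act on imprinted loci or retroelements had 2 members in the tables. Zfp57, which keeps methylation at imprinted control regions, had a region 481.5 bases after its TSS at 3 weeks (chr17:37139101-37140800) with 262, 329 and 243 in Tg197 libraries and 194, 181 and 185 in WT libraries. All Tg197 libraries were above all WT libraries, and the region rose 1.49-fold (log2 change 0.56 ± 0.17, adjusted p = 0.0151). A fall was called in 88.9% of all listed regions at 3 weeks and in 67.7% at 11 weeks. Zfp568, which represses a placental transcript of Igf2, fell in 4 of 4 regions at 3 weeks and 2 of 2 at 11 weeks. Its gene-body region at 3 weeks (chr7:30782301-30783300) held 61.2, 61.5 and 80.1 against 113, 105 and 127. The 11 week region that shares 900 bases with it held 66.4, 94.3 and 41.9 against 117, 100 and 117. The log2 changes were -0.77 ± 0.24 and -0.79 ± 0.25, and no library overlapped at either age.

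The largest rise near a start site at 3 weeks was at Zfp882, which had adjoining regions of opposite direction. The region over the TSS (chr8:74432001-74433000) held 157, 181 and 175 in Tg197 libraries against 131, 92.8 and 115, and rose by 0.61 ± 0.19 (adjusted p = 0.0147). The next 1000 bases, downstream, held 93.8, 81.8 and 103 against 120, 150 and 133, and fell by 0.53 ± 0.19 (adjusted p = 0.0195). In both regions all libraries of 1 group lay on the same side of the other. Of Zfp genes with several regions at 3 weeks, 6 of 22 had both directions (27.3%, against 16.8% of all such genes), namely Zfp362, Zfp592, Zfp651, Zfp687, Zfp768 and Zfp882. At 11 weeks 2 of 6 did (33.3%, against 43.5% of all), after TNF 1 of 1 (18.1% of all), and at 8 weeks 0 Zfp genes had several regions. In the other 5 of the 3 week genes the higher region was within 1 kb of the TSS but did not pass the limma threshold.

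Zfp622, which takes part in the maturation of the large ribosomal subunit, rose over its TSS at 3 weeks (chr15:25913601-25914800). Its values were 483, 512 and 399 against 351, 340 and 281, with a log2 change of 0.52 ± 0.18 (adjusted p = 0.0186). At 8 weeks a region 1880.5 bases downstream of the TSS held 271, 205 and 234 against 175, 160 and 187, with a log2 change of 0.44 ± 0.20 (adjusted p = 0.0845). Both regions had separated libraries, and only the first passed. Zfp740, the one promoter rise at 3 weeks outside 1 kb, held 156, 133 and 238 against 112, 127 and 99.8, with a log2 change of 0.59 ± 0.22. Tg197 library c was the highest of the 3 there, as in 1 of the 31 higher regions within 1 kb of a TSS, that of Zfp456. Zfp456, Zfp874, Zfp418 and Zfp870 completed the 8 largest rises past the threshold, with log2 changes from 0.45 to 0.50.

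Of the losses at 3 weeks, Zfp74 had the largest, 1610.5 bases after its TSS (chr7:30734801-30735800). Its values were 64.4, 27.8 and 46.2 in Tg197 libraries and 106, 113 and 126 in WT libraries, a mean of 46.1 ± 18.3 against 115 ± 9.96 (log2 change -1.38 ± 0.39, adjusted p = 0.0143). Zfp872 followed inside the gene, with 32.6, 29.0 and 103 against 113, 104 and 118 (log2 change -1.27 ± 0.46). Its Tg197 library c lay near the WT libraries while a and b were far below. Zfp280b was more even, with 59.6, 58.6 and 70.6 against 116, 145 and 126 (log2 change -1.03 ± 0.22). Taking 1 region per gene, the other 5 of the 8 largest losses were gene-body regions of Zfp207, Zfp592, Zfp169, Zfp316 and Zfp609, with log2 changes from -1.14 to -0.97.

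Of 11 Zfp genes that work at promoters or in chromatin complexes, 8 were listed at 3 weeks in 19 regions, of which 17 fell and 0 rose (median log2 change -0.65, against -0.70 over all regions, of which 88.9% fell). Zfp143, which binds promoters and anchors chromatin loops, fell within its gene (chr7:117237801-117238900) from 131 ± 6.44 to 69.3 ± 8.47. Its 3 Tg197 libraries lay between 60.3 and 77.1 and its WT libraries between 124 and 136, with a log2 change of -0.92 ± 0.21 (adjusted p = 0.0143). Zfp609, a partner of the cohesin loader Nipbl, fell in all 6 of its regions, spread from 1969.5 to 119870 bases after the TSS. Zfp592, a member of a transcriptional coregulator complex with Zfp687, fell in 3 gene-body regions, while its start site held 502, 631 and 276 against 330 to 353. At that start site Tg197 libraries a and b were above and c below every WT library (log2 change 0.37 ± 0.26, adjusted p = 0.177).

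After TNF, Zfp592 again had a higher and a lower region: 228, 405 and 319 against 206 to 237 near the TSS, and 94.1, 49.8 and 59.98 against 180, 191 and 81.1 in an upstream region at -2668.5 bases. Libraries overlapped in both, and neither passed (adjusted p = 0.0535 and 0.0597). At 11 weeks 3 genes of this list were listed in 6 regions, of which 1 rose and 4 fell (29.6% and 67.7% of all regions). Zfp148, a repressor and activator of GC-rich promoters, gave the rise 1890.5 bases after its TSS (chr16:33382101-33383400), with 347, 240 and 293 against 225, 202 and 218 (log2 change 0.43 ± 0.13, adjusted p = 0.00661). It also gave losses deep in the gene, where a region 72040 bases from the TSS held 63.2, 58.4 and 47.7 against 115, 99.4 and 100.0 (log2 change -0.89 ± 0.19). At 8 weeks 0 of 1 region of this list passed limma, and after TNF 0 of 3.

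Of 11 Zfp genes that bind RNA or act on ribosomes, 6 were listed at 3 weeks in 12 regions, of which 1 rose, at Zfp622, and 10 fell, at Zfp106, Zfp207, Zfp385a and Zfp598, where 88.9% of all listed regions fell. At 11 weeks 3 were listed and all 3 fell, at Zfp207, Zfp385a and Zfp598, the ligase that marks collided ribosomes, where 67.7% of all listed regions fell. At 8 weeks 0 of 4 regions passed, and after TNF 0 of 1. Zfp385a, an RNA-binding partner of p53, was lower upstream of its start at all 3 ages, in regions that overlap each other. At 3 weeks its upstream region held 77.1, 82.3 and 105 against 124, 136 and 136 (log2 change -0.59 ± 0.19, adjusted p = 0.016, or 0.08 scaled to all listed regions). At 8 weeks it held 67.3, 102 and 101 against 213, 190 and 104 (log2 change -0.86 ± 0.34, adjusted p = 0.0725), where WT library c sat just above the Tg197 libraries. At 11 weeks it held 106, 91.2 and 100.5 against 153, 127 and 146 (log2 change -0.52 ± 0.14, adjusted p = 0.00525).

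Zfp106, which is needed for motor neuron and muscle upkeep, gave the largest rise in value at 8 weeks, 615.5 bases after its TSS (chr2:120388401-120389500). It held 317, 297 and 308 in Tg197 libraries and 149, 236 and 252 in WT libraries. The groups separated, though WT library a was far below the other two, and the log2 change of 0.57 ± 0.24 missed the threshold (adjusted p = 0.0747). At 3 weeks its gene body was lower in 3 regions that all fell, with log2 changes from -0.75 to -0.49, where 98.2% of all gene-body regions fell.

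Lineage genes were few. Of 6 Zfp genes of mesenchymal differentiation, Zfp521, a brake on fat and cartilage differentiation, was higher at 8 weeks in the authors' deposited table, with 207, 181 and 215 against 158, 143 and 130 (limma log2 change 0.48 ± 0.20, adjusted p = 0.075). Zfp467, which favours fat over bone, was higher after TNF in the authors' deposited table, with 233, 220 and 238 against 180, 101 and 222 in WT. WT library c overlapped there, and the limma log2 change of 0.53 ± 0.27 missed the threshold (adjusted p = 0.0914). Of 4 pluripotency genes, Zfp296 had lower values at 8 weeks and after TNF, where WT libraries spread from 98.3 to 238 and from 218 to 511 and overlapped the other group both times. Zfp462 fell at 11 weeks inside the gene (chr4:54991401-54992600), with 87.8, 63.5 and 51.1 against 137, 114 and 120 (log2 change -0.90 ± 0.21, adjusted p = 0.00434), the largest loss of a Zfp region at that age.

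Zfp12 had the largest rise at 11 weeks, upstream of its TSS at -1335.5 bases (chr5:143995001-143996100), with 122, 132 and 127 in Tg197 libraries and 76.2, 60.2 and 78.6 in WT libraries. The mean was 127 ± 5.05 against 71.7 ± 10.02 (1.77-fold, log2 change 0.83 ± 0.17, adjusted p = 0.00434). Zfp53 and Zfp820 came next among regions near start sites. Zfp53 held 167, 150 and 156 against 72.8, 84.6 and 119 (log2 change 0.80 ± 0.18). Zfp820 held 175, 143 and 188 against 116, 76.8 and 107 over its TSS (log2 change 0.77 ± 0.17). No library overlapped in these 3 regions. Zfp428, Zfp13, Zfp651 and Zfp473 rose inside the gene, at 3900.5 to 20752 bases from the TSS, with log2 changes from 0.55 to 0.77, so at this age 6 of 26 Zfp gene-body regions rose (23.1%, against 24.8% of all gene-body regions). At 3 weeks 0 of 65 did. Zfp473 at 11 weeks rose in limma but had an adjusted p of 0.13 in the authors' deposited table.

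The 11 week losses after Zfp462 were at Zfp148, Zfp637, Zfp664, Zfp184, Zfp568, Zfp867 and Zfp251, with log2 changes from -0.89 to -0.75. Zfp637 held 42.8, 69.7 and 71.2 against 114, 107 and 100.0 in an upstream region at -1458.5 bases. Zfp184 held 48.2, 80.9 and 152 against 136, 151 and 157, so Tg197 library c lay within the WT range. In the other regions of this set the libraries of the groups did not overlap.

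At 8 weeks the lower Zfp regions were led by Zfp362, Zfp385a, Zfp296 and Zfp513, with log2 changes from -1.21 to -0.85. Zfp362 held 35.8, 74.2 and 48.3 against 167, 140 and 68.9, with WT library c inside the Tg197 range. Zfp513 (chr5:31501701-31502900) held 79.6, 111 and 117 against 243, 179 and 140, with separated groups (log2 change -0.85 ± 0.28, adjusted p = 0.0725). The higher regions beside Zfp106 were led by Zfp369, with 162, 150 and 193 against 105, 113 and 124, and Zfp334, with 209, 197 and 218 against 124, 159 and 156. Both separated by library, with log2 changes of 0.55 and 0.51 and adjusted p = 0.0725.

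The largest losses of Zfp regions in any table came after TNF, inside Zfp653 and Zfp780b. Zfp653 (chr9:21867901-21869000) held 86.8, 27.6 and 62.2 in TNF-treated libraries and 233, 167 and 114 in WT libraries (log2 change -1.62 ± 0.53, adjusted p = 0.046). Zfp780b (chr7:28759401-28760400) held 76.0, 34.1 and 38.5 against 189, 160 and 93.3 (log2 change -1.59 ± 0.56, adjusted p = 0.0462). In both, WT library c was the lowest of the WT libraries, yet above all treated ones. Zfp513, Zfp385c, Zfp251, Zfp771, Zfp46 and Zfp384, a regulator of matrix genes in bone cells, made up the other 6 falls, with log2 changes from -1.21 to -0.47. Zfp46 was steadier, with 217, 191 and 195 against 299, 311 and 256 near its TSS.

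The 6 rises after TNF were at Zfp827, Zfp511, Zfp623, Zfp574, Zfp560 and Zfp710, all within 3 kb of the start. Zfp623 (chr15:75770801-75771900) held 280, 264 and 265 over its TSS against 161, 204 and 204 (log2 change 0.51 ± 0.15, adjusted p = 0.046). Zfp710 (chr7:87170501-87171900) held 309, 309 and 317 against 252, 228 and 231 (log2 change 0.39 ± 0.12, adjusted p = 0.046). All treated libraries lay above every WT library in both. Zfp827 rose in limma but had an adjusted p of 0.23 in the authors' deposited table.

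6 Zfp genes were listed in both 8 week comparisons, which share their WT libraries, and their regions overlapped in all 6. Zfp513 had a log2 change of -0.85 in Tg197 cells and -1.21 after TNF. Zfp780b had -0.78 and -1.59, and Zfp771 had -0.59 and -0.55. Zfp821 had -0.62 and -0.47, Zfp296 had -0.86 and -0.66, and Zfp36l2 had -0.69 and -0.43. Shared controls tie these values, so likeness between them is not a result.

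Most members were listed once: 94 genes in 1 table, 32 in 2, 8 in 3 and 1 in all 4. The one in all 4 was Zfp771, always inside the gene and, as scaled by the authors, always lower. At 3 weeks its region (chr7:134394801-134396600) held 214, 158 and 182 against 259, 257 and 259, and at 11 weeks another held 104, 86.1 and 100.5 against 157, 139 and 146. At 8 weeks it held 135, 213 and 176 against 265, 251 and 258, and after TNF 152, 125 and 146 against 214.5, 200.45 and 202. The groups separated each time, with log2 changes from -0.67 to -0.49, and all but the 8 week value passed limma. Scaling to all listed regions moved the median change by 0.67 at 3 weeks and 0.71 at 8 weeks. The Zfp771 losses at these ages were no larger, so their direction depends on the scaling. A fall was also called in 88.9% of all listed regions at 3 weeks. Zfp710 had the most regions, 8. Near a start it had log2 changes of 0.25 at 11 weeks and 0.39 after TNF, in adjoining regions assigned to different transcripts that share no bases. Its 6 gene-body regions at 3 and 11 weeks had changes from -0.87 to -0.54.

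**Figure D4:**
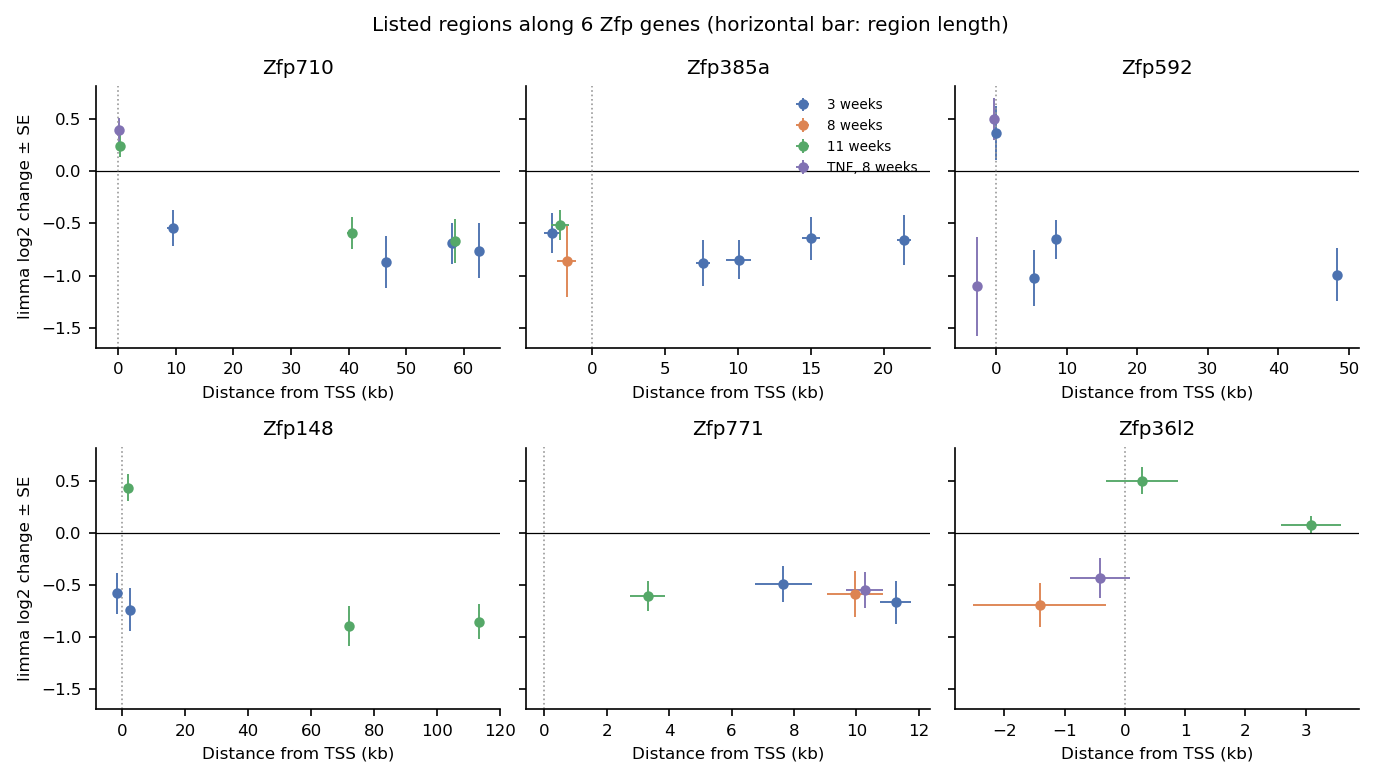
Listed regions along 6 Zfp genes, with the distance from the TSS in kb (x axis, horizontal bar the region length) and the limma log2 change with its SE (y axis), coloured by comparison. Zfp710 and Zfp592 are above 0 at the start and below 0 inside the gene, while Zfp385a and Zfp771 are below 0 in every listed region.

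Between ages of the Tg197 comparison, 15 pairs of Zfp regions from 12 genes overlapped, 9 with the same direction and 6 with opposite directions. The same direction was seen at Zfp385a, Zfp568, Zfp668, Zfp710, Zfp771 and Zfp191. Opposite directions were seen at Zfp148, Zfp207, Zfp316, Zfp651, Zfp687 and Zfp90. Zfp316 moved furthest, from a log2 change of -0.98 at 3 weeks to 0.54 at 11 weeks, where its libraries overlapped. Among the pairs whose libraries separated at both ages Zfp651 moved furthest: inside the gene it fell at 3 weeks, with 195, 161 and 172 against 286, 236 and 331 (log2 change -0.68 ± 0.18). A region that shares 900 bases with it rose at 11 weeks, with 179, 144 and 156 against 98.2, 89.8 and 110 (log2 change 0.68 ± 0.14). The libraries separated at both ages, and as the ages were normalized separately the difference between them was not tested. Opposite directions also depend on the scaling. Scaled to all listed regions, the 8 week change of Zfp687 turned from -0.63 to 0.076, and the 3 week median of all regions moved by 0.67.

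**Figure D5:**
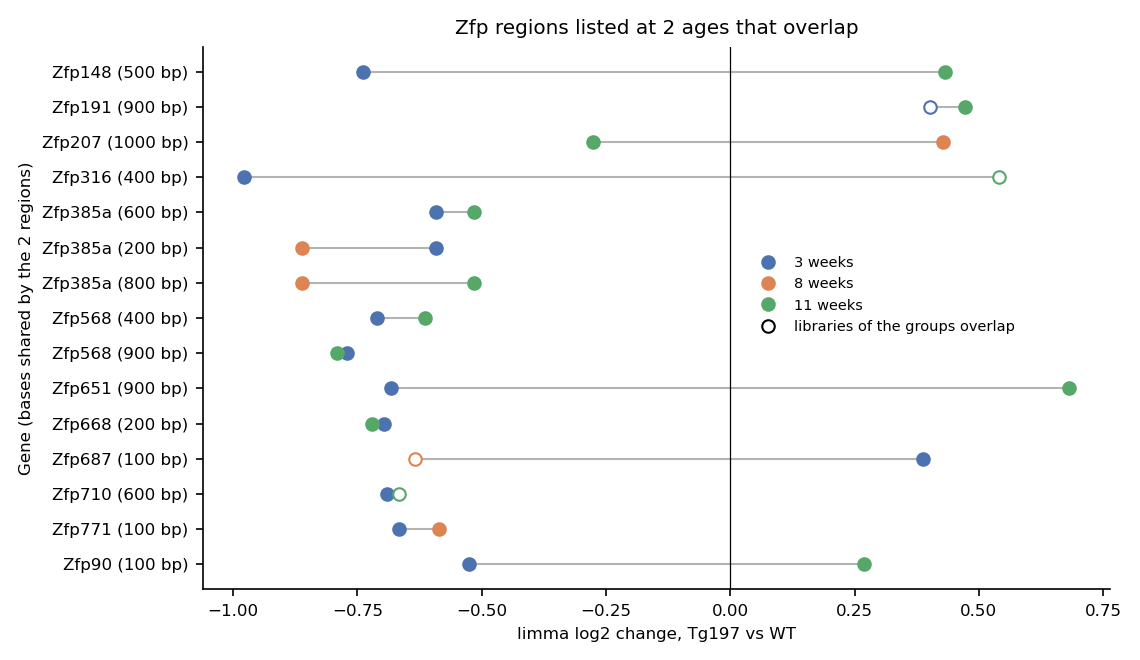
The limma log2 change in Tg197 against WT cells (x axis) of Zfp regions listed at 2 ages that share bases, 1 row per pair (y axis, shared bases in brackets). Open circles mark a region in which libraries of the groups overlap; 6 of the 15 pairs lie on both sides of 0.

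Zfp genes are clustered in the genome, and so were these regions: chromosome 7 held 36 of the 135 genes and 26.5% of the 238 regions, against 7.37% of all listed regions. Joining Zfp regions at most 300 kb apart gave 4 neighbourhoods with at least 4 genes. On chr13:67475701-67784700, with Zfp456, Zfp58, Zfp738, Zfp748, Zfp87 and Zfp874, all 6 regions, counted over the 4 comparisons, were within 1 kb of a TSS. Of these 5 had a higher value, 3 of which rose. On chr6:47785401-48036400, with Zfp282, Zfp398, Zfp746 and Zfp777, 4 of 4 were higher in value, 3 at 3 weeks and 1 after TNF. Only Zfp746 at 3 weeks rose. Within 1 kb of a TSS 73.7% of all listed regions were higher at 3 weeks, 55.5% at 8 weeks, 63.4% at 11 weeks and 53.7% after TNF. Whether these 2 neighbourhoods differ from those shares was not tested. On chr7:134377901-135025600, with 8 genes that include Zfp771 and Zfp768, 9 of 10 regions fell at 3 weeks and 3 of 3 at 11 weeks. On chr7:30568701-30831300, with Zfp14, Zfp30, Zfp568, Zfp74 and Zfp790, 6 of 7 fell at 3 weeks while the start site of Zfp30 rose. Of all listed regions 88.9% fell at 3 weeks and 67.7% at 11 weeks, so the 3 week falls in both chromosome 7 neighbourhoods are near the share of the whole table. Clustered genes have near-identical copies, and no source used here says how reads that match several places were treated, so values of single cluster members are uncertain.

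The machinery around these proteins, and zinc finger genes of other names, were read from 3 lists. Of 23 genes of the KRAB corepressor pathway, 10 were listed at 3 weeks in 22 regions, of which 0 rose and 19 fell (median log2 change -0.68, against -0.70 over all regions). Genes with a fall included Setdb1, which writes repressive histone methylation, Hdac1 and the heterochromatin proteins Cbx1 and Cbx5. In the authors' deposited table Trim28, Ehmt2 and Morc3 each had a higher region at 3 weeks, and Ehmt2 and Morc3 also had lower ones. Trim28 had a lower region at 8 weeks there. At 11 weeks 7 were listed in 10 regions, with 1 rise at Ehmt2 and 9 falls. After TNF both listed regions, at Chd3, fell, and at 8 weeks 0 of 6 passed limma. Of 25 genes of the messenger RNA decay pathway through which tristetraprolin acts, 9 were listed at 3 weeks in 13 regions, of which 0 rose and 10 fell (median -0.54), with falls that included Tnf itself. At 11 weeks 8 were listed in 12 regions, of which 4 rose and 8 fell, with rises at Mapkapk2, the kinase that phosphorylates tristetraprolin, Pan2 and Zc3h12a. After TNF 1 of 2 regions rose, at Mapkapk2, and at 8 weeks 0 of 4 passed limma. Of 24 zinc finger genes with other names, such as Klf4, Egr1, Ctcf and Sp1, 6 were listed at 3 weeks in 17 regions, of which 0 rose and 16 fell, and 10 at 11 weeks in 13 regions, of which 2 rose and 11 fell. At 8 weeks 0 of 4 of their regions passed, and after TNF 1 rose and 1 fell. At 3 and 11 weeks most of all listed regions fell, and these counts are to be read against the shares of all regions given above.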

How the data were processed

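H3K4me3 ChIP-seq regions came from 4 deposited tables, each comparing 3 libraries with 3. The normalized read counts per library and their mean signal per group were made by the authors and scaled within each table, per the file headers. The deposited fold enrichment is a ratio over input, the deposited log2 fold changes are those of the authors' comparison, and the deposited p-values are theirs, per the file headers. BWA, TopHat, TopHat2, Cufflinks, Cuffdiff and the build mm9 are listed without roles per the submitters' processing notes, and no source used here names the region caller, nor whether libraries stem from separate animals or cultures.

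Every value was a whole number of reads times 1 step per library (100.0% within a tolerance of 0.02). Control columns of both 8 week tables were read as the WT libraries, because 162 of 162 control values in 54 regions of identical coordinates were equal. Letters a, b and c give the order of the 3 values in a cell, which carry no replicate number, and 0 value columns were without a group.

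limma 3.58.1 (R 4.3.3) with a trend was fitted to log2(normalized count + 0.5) of every listed region of a table, with Benjamini-Hochberg adjustment over the listed regions and a threshold of 0.05. The method was tested on simulated data. Most simulated regions had no change, unlike the regions of these tables, so that test does not bear on the calls given here. Because the tables hold only regions already chosen for a difference, these p-values are not independent of that choice. Alternatives were a pseudocount of 5, a mean of at least 20, 2 scalings, voom on the recovered reads, regions within 3 kb only, an adjusted p of 0.001 and each library left out.

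The members and the gene lists were chosen with earlier results of these data known. Genes named with values were drawn from those with a region within 3 kb of a TSS in at least 3 tables, the 8 largest changes per table and direction past the limma threshold (or the authors' adjusted p where fewer passed), all CCCH and NF-kB-linked members, and at most 4 per other list. Some that this rule picks have no values in the text, such as Zfp157 and Zfp217 after TNF, Zfp507 at 11 weeks, and Zfp397 and Zfp790 at 8 weeks. Others were chosen after their values were seen, such as Zfp651 at 3 weeks, Zfp882 downstream of its start, Zfp827 and Zfp710. Of 135 genes, 133 matched RefSeq by transcript accession and 102 had a promoter sequence. By current symbols Zfp191 is Zfp24, Zfp874 is Zfp874a, Zfp187 is Zscan26, Zfp192 is Zkscan8 and Zfp259 is Zpr1.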

Additional observations from a re-analysis of the deposited data

Results flagged for a closer look

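In 4 genes a region listed at one age overlapped a region listed at another, and all Tg197 libraries lay on one side of all WT libraries at the first age and on the other side at the second. The difference between ages was not tested, and each age was normalized separately. Zfp651, inside the gene, had a log2 change at 11 weeks that was 1.36 above that at 3 weeks. Zfp148, near its TSS, had a change at 11 weeks 1.17 above that at 3 weeks. For Zfp90 the change at 11 weeks was 0.79 above that at 3 weeks, in regions sharing 100 bases. For Zfp207 the change at 11 weeks minus that at 8 weeks was -0.70, in regions sharing 1000 bases, and the 8 week change did not pass limma. Scaling to all listed regions moved the median change by 0.67 at 3 weeks, 0.71 at 8 weeks and 0.34 at 11 weeks. In size these shifts exceed the losses of Zfp90 at 3 weeks (-0.53) and Zfp207 at 11 weeks (-0.28). The opposite directions of these genes thus depend on the scaling. For Zfp651 (-0.68) and Zfp148 (-0.74) at 3 weeks the shift is nearly as large as the loss.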

How the results depend on the processing

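No paired analysis was possible because the 3 values of a group in the tables carry no replicate number. Over 913 alternative values of the 83 named regions, 707 kept their direction and side of the threshold, 157 no longer passed, 38 newly passed and 11 turned sign. The counts of all listed regions under both scalings are given above, and the Zfp counts are to be read against them. Scaling each library to all listed regions gave 0 falling Zfp regions at 3 weeks, 6 rising at 8 weeks, 4 falling at 11 weeks, and 12 rising and 2 falling after TNF. It turned the sign of Zfp36 (0.12), Zfp36l2 (0.02), Zfp687 (0.076) and Zfp821 (0.094) at 8 weeks, of Zfp36l1 (0.086) and 3 Zfp385a regions (0.008, 0.025 and 0.075) at 3 weeks, and of Zfp36l2 (0.072) and Zfp384 (0.034) after TNF. With start-site regions (within 1 kb) as the reference there were 0 rising at 3 weeks, 9 falling at 8 weeks, and 2 rising and 17 falling after TNF, and the gene-body region of Zfp36l2 at 11 weeks turned to -0.075. Within 3 kb of a TSS, 26 regions fell at 3 weeks, 11 at 11 weeks and 4 after TNF, and 60 and 30 passed the adjusted p of the authors' deposited table at 3 and 11 weeks, against 124 and 54 at any position. At an adjusted p of 0.001 in the authors' deposited table, 11 Zfp regions passed at 8 weeks, 30 at 11 weeks and 13 after TNF, against 21, 54 and 31 at 0.05. The share of all listed regions at 0.001 is not given here. Leaving out 1 library gave 0 to 29 rising and 0 to 90 falling at 3 weeks, 0 to 4 and 0 to 14 at 8 weeks, 21 to 23 and 28 to 29 at 11 weeks, and 0 to 10 and 0 to 19 after TNF. The 8 week and TNF tables had the fewest reads in listed regions, from 321448 per library.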

Other observations

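One Zfp gene-body region had a higher value in Tg197 cells at 3 weeks, at Zfp395, where Tg197 libraries held 84.25, 60.3 and 238 and WT libraries 79.8, 71.5 and 54.2. The high value came from Tg197 library c alone, the libraries overlapped, and the log2 change was 0.65 ± 0.41.

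Some regions had an adjusted p under 1e-06 in the authors' deposited table with a limma log2 change under 0.5 in size. At 3 weeks these were 2 of 8 Zfp regions with so small an adjusted p (Zfp160 and Zfp748), at 8 weeks 2 of 2 (Zfp523 and Zfp790), at 11 weeks 7 of 10 (Zfp207, Zfp318, Zfp330, Zfp36l2, Zfp526, Zfp710 and Zfp90) and after TNF 0 of 0. Over all listed regions they were 183 of 1036, 67 of 89, 316 of 585 and 54 of 56. The libraries of the 2 groups overlapped in 1 of the Zfp regions at 3 weeks and 2 at 11 weeks. No cause was tested.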
